A study of Mus musculus with 12 samples.

Results

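Tumors and hyperplastic lesions of the mouse tongue were compared within mice that had all received the same carcinogen, with 3 tumor and 3 hyperplasia samples taken by their titles out of 12 samples in the series. The question was which genes separate the last lesion of the 4-nitroquinoline 1-oxide (4-NQO) model from its first one. 4-NQO damages DNA through adducts, and treated mice develop squamous tumors of the tongue after hyperplasia and dysplasia. The 9 treated male CBA mice drank 100 ug/mL 4-NQO for 8 weeks, and 3 male CBA control mice drank none. The hyperplasia mice were labelled 20, 16 and 20 weeks of age and the tumor mice 20, 16 and 24 weeks, in the order of their replicate numbers. The other samples were normal mucosa of the 3 control mice, at 24, 12 and 20 weeks, and dysplasia of 3 treated mice, at 16, 24 and 16 weeks. The paper gives the same numbers as weeks of the experiment, so they may count time on study and not age. Each sample came from 1 mouse and was run on 1 array (Affymetrix Mouse Gene ST 2.0), after laser microdissection of epithelial cells and amplification of their RNA. The lesions were chemically induced and each was named from tissue sections, so a group stands for a histological grade and not for repeated sampling of 1 lesion. Values are robust multi-array average (RMA) expression on the log2 scale, on which a difference of 1 is a 2-fold difference.

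Stratified epithelium of the tongue renews itself from basal cells that rest on laminin through integrins. Daughter cells that leave this layer switch from basal to suprabasal keratins, build desmosomes, and seal themselves with a cornified envelope of cross-linked loricrin, filaggrin-like, small proline-rich and late cornified envelope proteins. On the dorsal tongue, filiform papillae add hair-like hard keratins and keratin-associated proteins to this programme.

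The 24477 genes measured had array medians between 6.16 and 6.35 in all 12 samples. Defining genes of stratified epithelium were bright in all 6 samples compared, and Krt5, Krt14 (basal keratins), Trp63 (the p63 transcription factor), Cdh1 (E-cadherin), Dsp (desmoplakin) and Perp had tumor minus hyperplasia differences between -0.03 and 0.24. The sign of these small values changed with the processing for Dsp and Perp, and for Trp63 only when 1 sample was left out. Tumor 1 stood apart in Y-linked genes, which were looked at after the values were seen. Its Kdm5d value was 2.97 and its Eif2s3y value 3.73, against 6.47 to 7.67 and 8.35 to 9.01 in the other 11 samples. Its value of Uty, also Y-linked, was 7.85, within their range of 6.83 to 8.06, and its Xist value was 4.68, within 4.47 to 4.98. No preparation day held both a tumor and a hyperplasia sample, so day and lesion cannot be told apart. The RNA integrity numbers (RIN) of the groups overlapped, with the lowest of the 6 in hyperplasia 2 and the highest in tumor 3.

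No gene passed the test between tumor and hyperplasia. Limma, fitted on 4 group means over 12 samples with Benjamini-Hochberg adjustment over 24477 genes, called 0 genes higher (0.0%) and 0 lower (0.0%) at 0.05, and the smallest adjusted p was 0.462. At an unadjusted p under 0.05 there were 1518 genes (6.2%), 710 higher (2.9%) and 808 lower (3.3%). The t-test named in the study's methods gave 686 and 939 genes at that unadjusted level and 0 after adjustment. A mean difference over 1 on the log2 scale, the study's rule for a changed gene, was met by 474 genes (1.94%), 185 with higher means in tumors (0.756%) and 289 with lower means (1.18%). Of these, 7 were higher by over 2 and 53 lower by over 2. The 3 tumor values all lay above the 3 hyperplasia values for 1441 genes (5.89%) and all below for 1837 genes (7.51%). Both conditions were met by 97 higher (0.396%) and 163 lower genes (0.666%). The shares of 5.89% and 7.51% are the background for the counts of separated genes in the lists below. The median standard error of a difference was 0.247, which gives a 95% interval of 0.537 to either side, and the smallest p that exact permutation allows with 3 samples in each group is 0.1. Differences below are descriptions from the fit with all samples, with 95% intervals from limma for those described most closely, and the few calls made when 1 sample was left out are named as such. Each mouse gave 1 sample on 1 array, so the spread behind the p-values mixes mouse, lesion and array handling. It is pooled over the 4 groups.

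**Figure D1:**
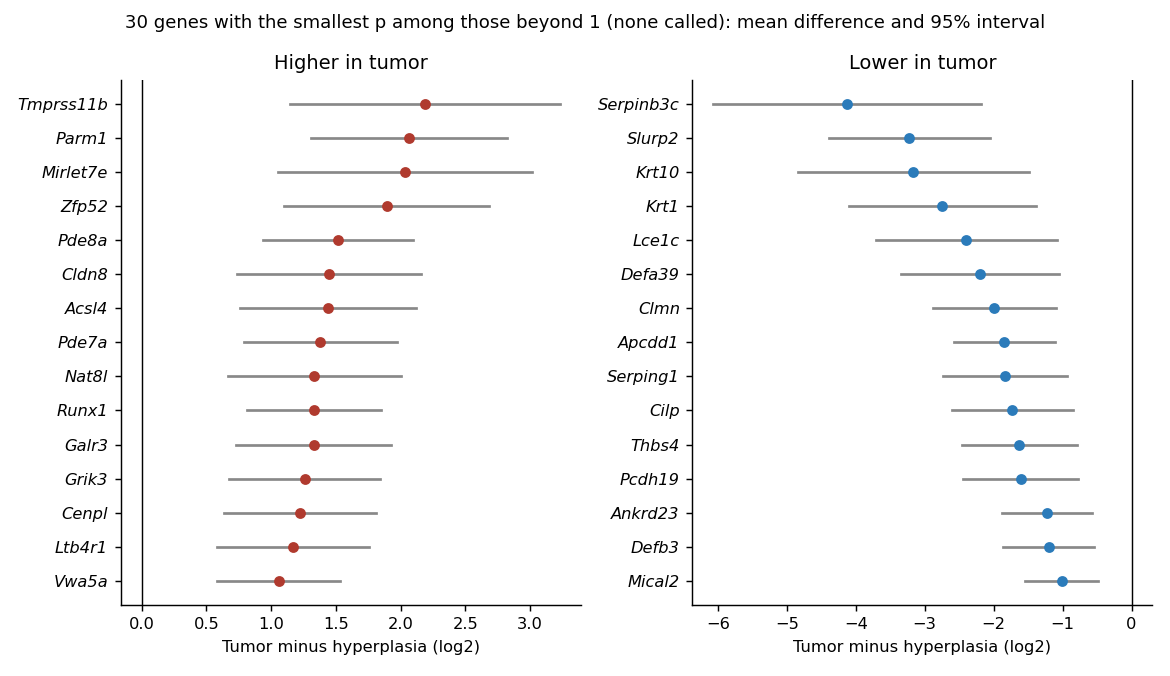
Tumor minus hyperplasia differences (x axis, log2) of 15 genes with higher and 15 with lower tumor means, with 95% intervals from limma. These genes had the smallest p among genes with a difference beyond 1 and no overlap between groups, so every interval lies on one side of 0 by that choice, while none had an adjusted p below 0.462.

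Genes of the upper epithelial layers were among those with large negative differences, as were genes of skeletal muscle. Slurp2 encodes a secreted Ly6 family protein of differentiated keratinocytes. Its log2 values were 11.20, 10.12 and 10.13 in hyperplasia 1, 2 and 3, and 6.42, 6.76 and 8.59 in tumors 1, 2 and 3. All tumors were below all hyperplasia samples, with tumor 3 nearest to them. The difference was -3.22 (95% interval -4.39 to -2.05, adjusted p = 0.462), a 9.34-fold lower level. Without tumor 3 it was -3.89 and limma called it (adjusted p = 0.0288). Slurp1, which encodes the related protein mutated in a human palmoplantar keratoderma and which was added after its values were seen, stood at 10.35, 10.98 and 10.85 in hyperplasia and at 5.89, 8.31 and 9.74 in tumors. The difference was -2.75 (95% interval -4.37 to -1.12), with no overlap.

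The keratin pair of suprabasal epidermis, Krt1 and Krt10, was lower in tumors. Krt10 values were 12.74, 11.54 and 12.40 in hyperplasia and 7.78, 8.48 and 10.93 in tumors, a difference of -3.16 (95% interval -4.84 to -1.49). Krt1 values were 9.30, 9.26 and 9.62 in hyperplasia and 5.37, 7.02 and 7.57 in tumors, a difference of -2.75 (95% interval -4.10 to -1.39). Neither gene overlapped between the groups. Among the defining markers, Krt4, the suprabasal keratin of oral mucosa, stood at 11.91, 13.09 and 12.03 in hyperplasia against 9.03, 10.26 and 11.37 in tumors, a difference of -2.12. Its partner Krt13 differed by -0.51, with 12.92 to 13.07 in hyperplasia and 12.33 to 12.77 in tumors. Over the 11 measured suprabasal keratin genes, 5 were lower by over 1 and none higher by over 1, 4 did not overlap between groups, and the median difference was -0.897. The median over all genes was -0.0102. In bulk samples of this kind, fewer cells of a layer and less RNA per cell cannot be told apart.

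Late cornified envelope (Lce) genes were lower in tumors almost throughout the family. Lce1c values were 11.55, 11.40 and 11.65 in hyperplasia and 8.21, 9.23 and 9.96 in tumors, a difference of -2.40 (95% interval -3.71 to -1.09). Of 21 measured Lce genes, grouped by name after their values were seen, 20 were lower by over 1, 18 had no overlap between the groups, and 0 passed the test. Their differences ran from -2.47 in Lce3e to 0.12 in Lce6a, with a median of -1.96. Averaged over the 21 genes, hyperplasia 1, 2 and 3 stood at 9.54, 9.45 and 9.61, and tumors 1, 2 and 3 at 7.57, 7.28 and 8.10. These genes lie beside each other on chromosome 3 and resemble each other in sequence, so their probes can share signal and they are not 21 independent measurements.

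The promoters of 3 Lce genes are shown because nearly the whole family was lower in tumors, from RefSeq on GRCm38.p6 and each from 250 bases before to 50 bases after the start. Lce1c lies at chr3:92678997-92679296 on the plus strand, Lce1h at chr3:92765016-92765315 on the minus strand, and Lce3e at chr3:92966811-92967110 on the plus strand, each written 5′ to 3′ along its gene. Capitals mark ATAAAAGG, a run found by comparing Lce promoters.
Lce1c: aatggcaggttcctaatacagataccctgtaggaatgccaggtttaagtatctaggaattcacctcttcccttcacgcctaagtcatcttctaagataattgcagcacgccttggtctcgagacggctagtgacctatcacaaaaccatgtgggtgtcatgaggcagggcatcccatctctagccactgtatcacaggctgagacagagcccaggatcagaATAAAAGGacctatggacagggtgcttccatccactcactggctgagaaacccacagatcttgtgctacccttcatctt
Lce1h: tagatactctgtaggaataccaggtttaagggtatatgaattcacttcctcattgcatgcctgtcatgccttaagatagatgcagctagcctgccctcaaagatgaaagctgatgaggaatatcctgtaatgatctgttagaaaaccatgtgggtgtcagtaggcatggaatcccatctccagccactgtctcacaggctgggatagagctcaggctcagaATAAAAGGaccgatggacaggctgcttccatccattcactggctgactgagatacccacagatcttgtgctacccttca
Lce3e: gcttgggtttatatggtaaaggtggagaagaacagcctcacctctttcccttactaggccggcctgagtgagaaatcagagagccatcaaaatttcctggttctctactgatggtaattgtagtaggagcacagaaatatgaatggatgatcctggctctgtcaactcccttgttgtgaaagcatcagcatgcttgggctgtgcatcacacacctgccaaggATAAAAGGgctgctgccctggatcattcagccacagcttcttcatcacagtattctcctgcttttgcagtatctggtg
On either strand, ATAAAAGG was in 13 of the 20 Lce genes that have a promoter in the table and in 1.76% of all 32851 promoters, Lce promoters included. A gene was counted if any of its promoters matched, while the percentage is of single promoters, so these are unlike units. The match is a description of letters shared within a gene family.

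The wider cornified envelope list, which holds 9 of the Lce genes, gave a split picture. Of its 38 genes, 17 were lower by over 1 and 2 higher by over 1, 18 did not overlap on the lower side and 0 on the higher side, and the median was -0.706. Without hyperplasia 1 the median was -1.222. Hrnr (hornerin, a filaggrin-like protein) stood at 9.86, 10.27 and 11.14 in hyperplasia and 7.89, 6.11 and 8.32 in tumors, a difference of -2.98 (95% interval -4.83 to -1.14). Flg (filaggrin), named after its values were seen, was at 8.16, 9.53 and 8.77 in hyperplasia and at 5.65, 5.60 and 8.57 in tumors. Tumor 3 lay among the hyperplasia samples for this gene. The difference was -2.21, and without tumor 3 it was -3.19 and was called by limma (adjusted p = 0.0288). Ivl (involucrin), also chosen afterwards, was the member with the highest difference, 1.33, through 1 sample: tumor 2 was at 10.02 and tumors 1 and 3 at 6.49 and 6.86, against 6.09 to 7.02 in hyperplasia. The 13 small proline-rich (Sprr) genes had a median difference that rounded to 0, with 2 lower by over 1, 1 higher by over 1 and none without overlap.

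**Figure D2:**
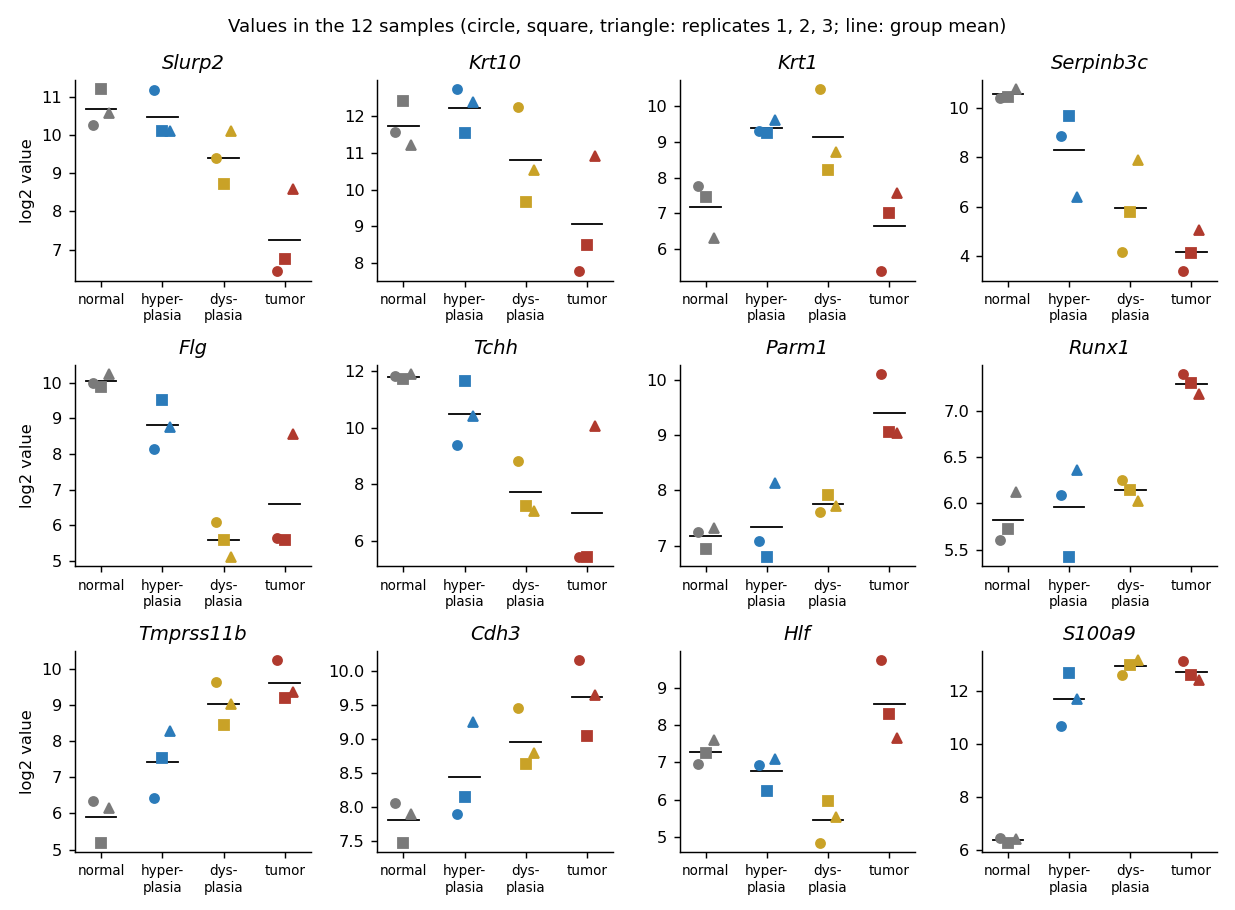
Log2 values (y axes) of 12 genes in each of the 12 samples, by lesion grade, with the group mean as a line. Slurp2, Krt10, Krt1 and Serpinb3c of all 3 tumors lie below all hyperplasia samples, tumor 3 is the highest tumor sample for Flg and Tchh, and Parm1, Runx1 and Tmprss11b of all 3 tumors lie above all hyperplasia samples.

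Genes that act in keratinocyte maturation were mostly lower too. Prdm1 (Blimp1, a repressor needed for terminal differentiation) stood at 8.61, 8.63 and 8.75 in hyperplasia and at 7.62, 7.23 and 7.23 in tumors, a difference of -1.30 (95% interval -2.19 to -0.42). Hopx, a homeodomain protein without DNA binding of its own, differed by -0.74. Of 14 differentiation regulators, 4 were separated on the lower side and 1 on the higher side, with a median of -0.341. Among 18 genes of barrier lipids, 15 had a negative difference, 6 were separated on the lower side and the median was -0.467. Aloxe3, a lipoxygenase of the permeability barrier, differed by -1.21 (-0.64 with RIN as a covariate), and the ceramidase gene Acer1 by -1.03.

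Clade B serpins, intracellular protease inhibitors of squamous cells, held the gene with the largest difference of all those named. Serpinb3c was at 8.84, 9.69 and 6.40 in hyperplasia 1, 2 and 3 and at 3.38, 4.13 and 5.05 in tumors 1, 2 and 3. The groups did not overlap, though hyperplasia 3 lay nearer to tumor 3 than to hyperplasia 2. The difference was -4.12 (95% interval -6.07 to -2.18), a 17.4-fold lower level. Values near 3 lie close to the 5th percentile of these arrays, 3.02 to 3.10, so the lowest tumor value was near background. Serpinb3a differed by -1.63. Their sequences are nearly identical, so 1 probe set may read more than 1 of them. Of 13 clade B serpins, 5 were separated on the lower side and 0 on the higher side, and the median of -0.345 was -0.087 without hyperplasia 3.

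Hard keratins and keratin-associated proteins of the papillae depended on 1 hyperplasia sample. Krtap13 values were 8.62, 11.43 and 6.78 in hyperplasia and 3.10, 5.42 and 6.93 in tumors, so tumor 3 lay above hyperplasia 3. Krtap4-2 was at 4.27, 8.72 and 4.13 in hyperplasia and at 2.89, 3.20 and 3.46 in tumors, a difference of -2.52 that was -1.01 without hyperplasia 2. Krtap13 in tumor 1 and Krtap4-2 in tumors 1 and 2 lay near or below the 5th percentile of these arrays (3.02 to 3.10). The sizes of these differences are therefore uncertain. Of 24 genes in the list, 14 were lower by over 1, but only 2 had groups that did not overlap. The list mean was 6.12, 8.51 and 5.77 in hyperplasia against 5.15, 5.11 and 6.02 in tumors, so the groups overlapped, and the list median of -1.25 was -0.361 without hyperplasia 2.

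Tchh (trichohyalin of papillae and hair sheath) behaved alike in tumor 3, at 10.05, against 5.42 in tumor 1 and 5.42 in tumor 2, and 9.37, 11.65 and 10.41 in hyperplasia. Its difference of -3.51 was -5.06 without tumor 3, where limma called it (adjusted p = 0.0288). Msx2, a homeobox gene of hair and papilla, was at 5.53, 7.18 and 5.85 in hyperplasia and 4.83, 5.16 and 4.97 in tumors. Its difference was -1.20, with no overlap. The 14 regulators of papilla and hair had a median of -0.165.

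Host defence genes showed both directions. Defb3 (beta-defensin) values were 12.43, 12.82 and 12.30 in hyperplasia and 11.44, 11.85 and 10.65 in tumors, a difference of -1.20 (95% interval -1.86 to -0.54). Saa3 (serum amyloid A) differed by -1.46, with hyperplasia 1 at 6.77 below tumor 2 at 6.91. Defb1, another beta-defensin, had a difference of 1.51, with hyperplasia 3 at 8.29 above tumor 2 at 7.97, and 0.61 with the muscle gene mean as a covariate. Of 21 antimicrobial peptide genes, 15 had a negative difference and 3 were separated on the lower side, with a median of -0.412. Defa39 carries the name of an alpha-defensin of the gut, a family of near-identical copies, and differed by -2.20 with no overlap.

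The other genes with small p on the lower side had varied roles. Apcdd1 encodes a membrane inhibitor of Wnt signalling. Its values were 9.95, 10.79 and 9.64 in hyperplasia and 7.87, 8.24 and 8.73 in tumors, a difference of -1.85 (95% interval -2.57 to -1.12, adjusted p = 0.462). Among 30 Wnt pathway genes, 7 were separated on the lower side and 1 on the higher side, and the median was -0.123. Fzd10, a Wnt receptor gene, was on the opposite side of Apcdd1, at 5.21, 5.63 and 6.34 in hyperplasia and 7.42, 7.06 and 6.19 in tumors, with tumor 3 inside the hyperplasia range.

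Extracellular and contractile genes were also among them. Serping1 (the C1 inhibitor of complement) was at 8.92, 8.93 and 7.48 in hyperplasia and between 6.56 and 6.70 in tumors, a difference of -1.83. Cilp (a cartilage matrix protein), Thbs4 (a thrombospondin of tendon and muscle) and Ankrd23 (a muscle ankyrin repeat protein) differed by -1.73, -1.63 and -1.23. Clmn (calmin, a membrane protein with an actin-binding domain) differed by -1.99, Pcdh19 (a protocadherin) by -1.61 and Mical2 (an actin oxidase) by -1.01. With the muscle gene mean as a covariate, Ankrd23 differed by -0.91, Serping1 by -1.48 and Mical2 by -0.90.

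Among genes that were higher in tumors, Parm1 and Tmprss11b had the largest differences by the naming rule. Parm1, a mucin-like membrane protein, stood at 7.09, 6.79 and 8.13 in hyperplasia and at 10.10, 9.05 and 9.05 in tumors, a difference of 2.07 (95% interval 1.31 to 2.82, adjusted p = 0.462). Tmprss11b, a membrane serine protease of squamous epithelium, was at 6.43, 7.52 and 8.28 in hyperplasia and at 10.24, 9.20 and 9.35 in tumors, a difference of 2.19 (95% interval 1.15 to 3.23). Both genes were separated, with hyperplasia 3 the nearest to the tumors. Of 7 measured Tmprss11 genes, 6 had a positive difference and only Tmprss11b was without overlap.

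The genes named by smallest p also held regulators and signalling genes. Runx1, a transcription factor of blood and epithelial stem cells, was at 6.09, 5.42 and 6.36 in hyperplasia and at 7.39, 7.30 and 7.18 in tumors. The tumors lay close together, all above hyperplasia, and the difference was 1.33 (95% interval 0.82 to 1.85). Pde8a and Pde7a, phosphodiesterases that degrade cyclic AMP, differed by 1.52 (95% interval 0.94 to 2.10) and 1.38 (95% interval 0.79 to 1.97). Ltb4r1, the leukotriene B4 receptor, differed by 1.17, Galr3 (a galanin receptor) by 1.33 and Grik3 (a kainate receptor) by 1.26.

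Genes of metabolism and junctions were also among them. Acsl4, which activates arachidonic acid, was at 6.06, 7.29 and 6.88 in hyperplasia and at 8.38, 8.42 and 7.75 in tumors, a difference of 1.44. Nat8l (N-acetylaspartate synthesis) differed by 1.33, Cldn8 (a claudin of tight junctions) by 1.45 and Vwa5a (a von Willebrand factor A domain protein) by 1.06. Zfp52, a zinc finger gene, differed by 1.89 (95% interval 1.10 to 2.68). Another zinc finger gene, Zfp942, was called when hyperplasia 1 was left out, at 2.73 (adjusted p = 0.042). With all samples its difference was 1.73, since hyperplasia 1 stood at 7.28 and hyperplasia 2 and 3 at 4.51 and 4.06, against 6.73 to 7.24 in tumors. Scgb2b27, a secretoglobin gene noticed after its values were seen, stood at 1.96, 2.97 and 4.84 in hyperplasia and between 4.92 and 7.04 in tumors. Hyperplasia 1 and 2 lay below the 5th percentile of these arrays (3.02 to 3.10), so the size of its difference is not given.

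Genes of the basal layer and its attachment mostly had positive differences. Cdh3 (P-cadherin of basal cells) was at 7.90, 8.16 and 9.26 in hyperplasia and at 10.16, 9.04 and 9.65 in tumors, a difference of 1.18 (95% interval 0.36 to 2.00). Hyperplasia 3 overlapped the tumors. The keratin gene Krt15 had a difference of -0.84 with an interval of -2.57 to 0.90, and 0.10 with RIN as a covariate. The 14 basal keratinocyte genes had a median of 0.244, with 1 gene separated on each side. It was 0.104 without tumor 1 and also without tumor 3, and 0.397 without hyperplasia 3 and 0.421 without tumor 2. Of 15 integrin and laminin genes, 14 had a positive difference, 2 were separated on the higher side and 1 on the lower, and the median was 0.431. Itga3, the alpha chain of a laminin receptor, was at 7.07, 7.28 and 7.56 in hyperplasia and 8.66, 7.69 and 8.27 in tumors, a difference of 0.90 (95% interval 0.38 to 1.43). Itga6, its hemidesmosome counterpart, differed by 0.79, with hyperplasia 3 at 10.65 above tumor 2 at 10.36. The mean of the integrin and laminin list was 7.56, 7.54 and 8.06 in hyperplasia and 8.42, 7.83 and 8.24 in tumors, so hyperplasia 3 lay within the tumor range.

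Desmosome genes had differences of either sign. Dsg1a, the desmoglein of upper layers, was at 10.60, 10.37 and 10.98 in hyperplasia and at 9.65, 8.16 and 10.11 in tumors, a difference of -1.34. Dsg3, the desmoglein of lower layers, was at 10.48, 10.77 and 11.57 in hyperplasia and 12.13, 11.42 and 11.79 in tumors, a difference of 0.84 with hyperplasia 3 above tumor 2. Of the 14 desmosome genes, 7 had a positive and 7 a negative difference, 2 were separated on the lower side and 0 on the higher side, and the median was -0.001.

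**Figure D3:**
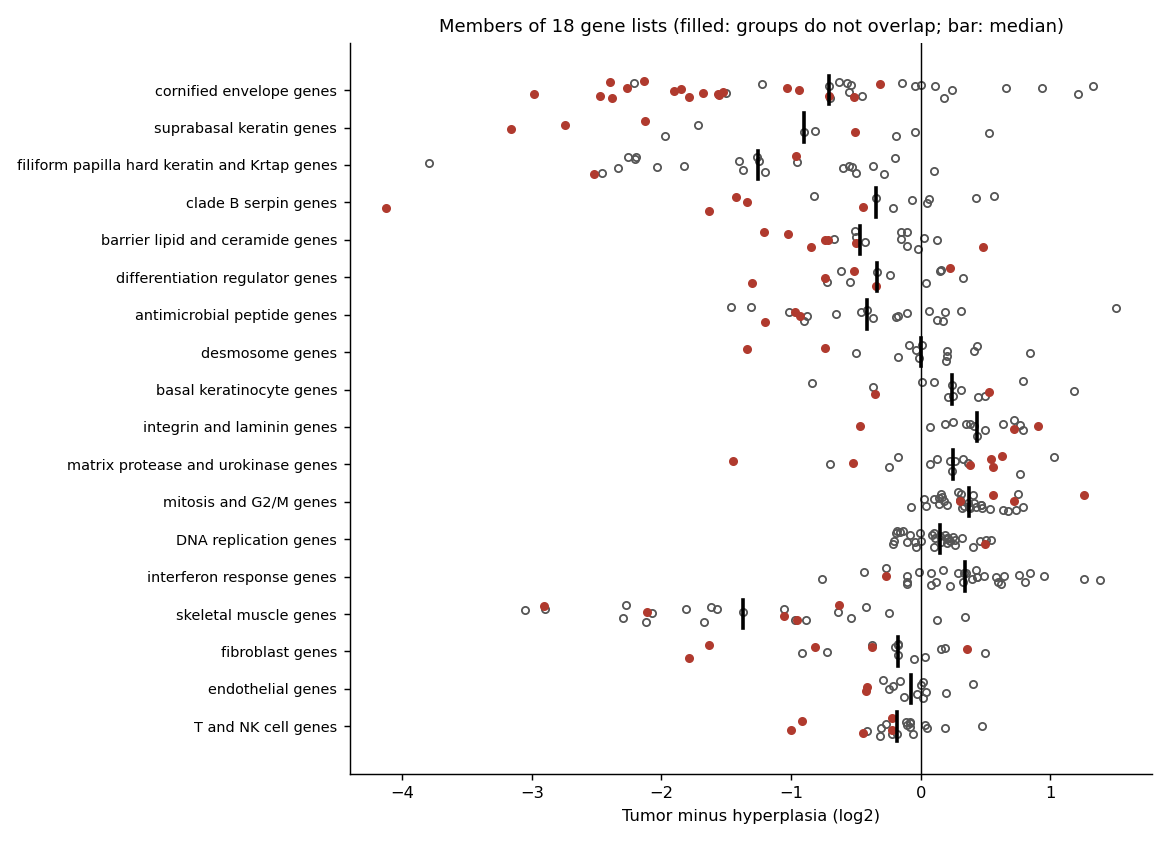
Tumor minus hyperplasia difference (x axis, log2) of every measured member of 18 gene lists (y axis). Filled points are genes whose 3 tumor values all lie on one side of the 3 hyperplasia values, open points overlap, and bars are medians, which run from -1.37 for skeletal muscle genes to 0.431 for integrin and laminin genes.

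Matrix proteases and mesenchymal genes held separated members on either side. Adam8 (a cell surface metalloprotease) differed by 1.03, with hyperplasia 3 at 7.12 above tumor 2 at 6.75, and Timp3 (a metalloprotease inhibitor) by -1.45 with no overlap. Of 18 genes in that list, 4 were separated on the higher side and 2 on the lower, with a median of 0.251 (0.148 without hyperplasia 2 and 0.167 without tumor 1). Tgfbi, a secreted adhesion protein induced by transforming growth factor beta, was at 7.65, 8.01 and 10.31 in hyperplasia and at 11.57, 9.10 and 11.21 in tumors. Its difference of 1.97 (95% interval 0.51 to 3.43) came with hyperplasia 3 above tumor 2. Tnc (tenascin C) overlapped in the same pair, with a difference of 1.27. Of the 15 epithelial-mesenchymal transition genes, 1 was separated on the higher side and 3 on the lower, and the median was -0.099 (0.004 without tumor 1). In either direction, 13.4% of all genes were separated.

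Among cell cycle genes, those of mitosis mostly had small positive differences. Of 34 mitosis genes, 33 had a positive difference, 4 were separated on the higher side and 0 on the lower, 1 was higher by over 1, and the median was 0.372 (0.229 without hyperplasia 1 and 0.141 without tumor 2). The list mean was 7.55, 7.92 and 7.89 in hyperplasia and 8.17, 8.53 and 7.84 in tumors, so tumor 3 lay within the hyperplasia range. Ndc80, a kinetochore protein, was at 7.05, 6.28 and 7.47 in hyperplasia and 7.96, 8.40 and 8.21 in tumors, a difference of 1.26 (95% interval 0.31 to 2.21, and 0.77 with RIN as a covariate). Hmmr, a spindle protein, differed by 0.79. Cenpl, a centromere protein outside that list, was at 5.48, 6.05 and 6.24 in hyperplasia and 7.35, 7.08 and 7.01 in tumors, a difference of 1.22 (95% interval 0.64 to 1.81). Of the 33 DNA replication genes, 21 had a positive and 12 a negative difference and 1 was separated, and the median of 0.149 was 0.015 without hyperplasia 1 and -0.023 without tumor 2. Of the 22 genes of G1/S control, 14 had a negative difference and 2 were separated, both on the lower side, with a median of -0.057. Of all genes, 5.89% were separated on the higher side and 7.51% on the lower side.

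Promoters of the 30 genes named by smallest p were searched for 5 motifs on both strands, and 19 of the genes had a promoter in the table. TGACTCA (AP-1) and TTATGTAA (D-box) were in 0 of these 19, against 5.2% and 0.938% of all 32851 promoters. CCAAT was in 7 of 19 (37.4% of all promoters), CACGTG (E-box) in 2 (7.15%) and TGACNNNGC (antioxidant element) in 3 (12.4%). Here too genes were counted if any of their promoters matched, while the percentages are of single promoters. Krt10 and Cenpl are shown as a gene from each direction, with CCAAT or its reverse complement in capitals. Krt10 lies at chr11:99389315-99389614 on the minus strand and Cenpl at chr1:161070517-161070816 on the plus strand of GRCm38.p6 (RefSeq).
Krt10: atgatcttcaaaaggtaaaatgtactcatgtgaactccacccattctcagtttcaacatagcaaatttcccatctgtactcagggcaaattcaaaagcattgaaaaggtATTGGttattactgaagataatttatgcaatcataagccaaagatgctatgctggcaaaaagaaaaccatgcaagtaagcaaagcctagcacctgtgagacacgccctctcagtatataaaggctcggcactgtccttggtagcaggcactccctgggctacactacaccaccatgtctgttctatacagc
Cenpl: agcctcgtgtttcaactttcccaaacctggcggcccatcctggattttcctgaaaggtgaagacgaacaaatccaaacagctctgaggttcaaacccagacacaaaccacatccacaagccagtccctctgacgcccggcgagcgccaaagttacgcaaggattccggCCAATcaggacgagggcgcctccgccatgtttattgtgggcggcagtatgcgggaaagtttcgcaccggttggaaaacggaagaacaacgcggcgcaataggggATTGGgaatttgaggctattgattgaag
Krt10 held 1 match on the reverse strand and Cenpl 2 matches, 1 on each strand.

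The microRNA gene Mirlet7e, which gives rise to let-7e, was the only microRNA gene among the 30. Its values were 4.35, 3.04 and 5.09 in hyperplasia and 6.56, 5.66 and 6.36 in tumors, a difference of 2.03 (95% interval 1.06 to 3.01). The groups did not overlap, but the hyperplasia values lie low on these arrays, and hyperplasia 2 lies within their 5th percentiles (3.02 to 3.10). The probe set reads the precursor region and not the mature RNA. let-7 microRNAs bind targets through the seed, bases 2 to 8 from the 5′ end, given here in capitals for let-7e, for let-7b, whose gene had the next largest difference in the family, and for let-7a.
mmu-let-7e-5p: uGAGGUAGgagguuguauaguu
mmu-let-7b-5p: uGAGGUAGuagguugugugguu
mmu-let-7a-5p: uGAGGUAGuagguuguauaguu
The sequences are from RefSeq (GRCm38.p6) at chr17:17830366-17830387 on the plus strand, chr15:85707325-85707346 on the plus strand and chr13:48538239-48538260 on the minus strand. All 11 let-7 and miR-98 genes with a 5p sequence in the table share this seed. The 11 family genes measured beside Mirlet7e had a median difference of 0.02, from -0.351 to 1.37, and none was separated. Mirlet7b, at 1.37, rested on hyperplasia 3 at 2.64, against 5.84 and 5.62 in hyperplasia 1 and 2 and 5.70 to 6.60 in tumors. Mir99b, which lies beside Mirlet7e, was at 8.49, 8.02 and 8.39 in hyperplasia and 8.13, 8.31 and 8.22 in tumors.

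Clock-output, stress and metabolic genes differed in either direction. Hlf, a transcription factor of the clock output, was at 6.94, 6.23 and 7.10 in hyperplasia and at 9.74, 8.29 and 7.65 in tumors, a difference of 1.80 (95% interval 0.80 to 2.81). Usp2, a deubiquitinase with a daily rhythm, differed by -1.21 with no overlap, and the 19 clock genes had a median of -0.042. Times of day were not given. Slc2a1 (the glucose transporter GLUT1) was at 11.16, 10.82 and 11.51 in hyperplasia and 12.33, 11.71 and 11.87 in tumors, a difference of 0.81 (95% interval 0.32 to 1.29), with no overlap. Of the 27 hypoxia and glycolysis genes, 4 were separated on the higher side and 2 on the lower, and the median of 0.199 was 0.101 without hyperplasia 2, 0.104 without tumor 1 and 0.351 without hyperplasia 3. The calprotectin genes S100a9 and S100a8 were near the top of the scale in both groups. S100a9 stood at 10.69, 12.69 and 11.70 in hyperplasia and 13.11, 12.59 and 12.41 in tumors, a difference of 1.01 with overlap through hyperplasia 2, and S100a8 differed by 0.72. The 11 epithelial S100 genes had a median of -0.095.

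Interferon genes differed mainly in 1 tumor, and other immune genes in either direction. Interferon response and antigen presentation genes had list means of 6.31, 6.34 and 6.60 in hyperplasia and 7.56, 6.38 and 6.29 in tumors. Tumor 1 stood alone, with Isg15 (a ubiquitin-like interferon product) at 7.67 against 5.37 and 5.46 in tumors 2 and 3 and Gbp2 (a guanylate-binding protein) at 8.32 against 4.79 and 5.64. The list median of 0.342 was -0.048 without tumor 1. Ccl22, a chemokine of dendritic cells and macrophages, differed by -1.32 with hyperplasia 3 at 6.07 inside the tumor range. Cd86, a costimulatory ligand, was at 5.52, 6.26 and 5.43 in hyperplasia and 4.52, 4.20 and 5.16 in tumors, a difference of -1.11 with no overlap, while its relative Cd80 had a difference of 1.22 with overlap through hyperplasia 3.

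Genes of other cell types also differed in the comparison, above all those of skeletal muscle, which lies under the tongue epithelium. Of 25 muscle genes, 15 were lower in tumors by over 1 and 5 did not overlap, with a median of -1.37 (-0.884 without hyperplasia 1), and these 15 were 5.19% of the genes lower by over 1. Acta1 (skeletal actin) was at 11.90, 11.07 and 8.30 in hyperplasia 1, 2 and 3 and at 9.02, 6.22 and 6.87 in tumors, and Myh1 (a fast myosin) at 9.15, 6.58 and 5.92 against 4.86, 4.17 and 3.89. The mean of the list was 8.49, 7.82 and 6.34 in hyperplasia and 6.80, 5.93 and 5.75 in tumors, so hyperplasia 3 held less muscle signal than tumor 1. With the muscle mean as a covariate, Krt10 differed by -3.68, Slurp2 by -3.37, Lce1c by -2.85, Parm1 by 2.02 and Runx1 by 1.23. Acta1 and Myh1, members of that mean, differed by -0.71 and -0.76. Several other named genes had smaller differences with this covariate than without it. These were 1.46 for Zfp52, 1.07 for Cldn8, 0.90 for Cenpl, 0.82 for Ndc80, 0.76 for Isg15 and -0.79 for Ccl22. None was called, and the part of muscle RNA in these differences was not tested.

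Stromal and blood-derived cells differed less. Of 17 fibroblast genes, 4 were separated on the lower side (7.51% over all genes) and 1 on the higher side (5.89%), with a median of -0.179. Dcn (decorin) was at 9.58, 11.10 and 9.40 in hyperplasia and 8.85, 7.74 and 8.59 in tumors, and Dpt (dermatopontin) differed by -1.79. The 14 endothelial genes had a median of -0.077, and the 17 macrophage and Langerhans cell genes one of 0.04, with C1qc (complement) at 0.71 and Cd207 (langerin) at -0.83, both without overlap. Of 21 T and NK cell genes, 5 were separated on the lower side. Among them, Cd3g of the T cell receptor complex was at 5.43, 6.58 and 5.85 in hyperplasia and 5.13, 4.90 and 5.09 in tumors. Of 11 mast cell genes, with a median of -0.414, 9 had a negative difference and 2 were separated on the lower side. The latter included Cpa3 (a carboxypeptidase) at -1.29, or -0.40 with the muscle mean as a covariate. Cma2 had the largest absolute difference of that list and the opposite sign, 1.34, with overlap through tumor 3. The part of these other cells in the differences above was not tested. The 33 lists not described here had medians between -0.547 and 0.286.

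**Figure D4:**
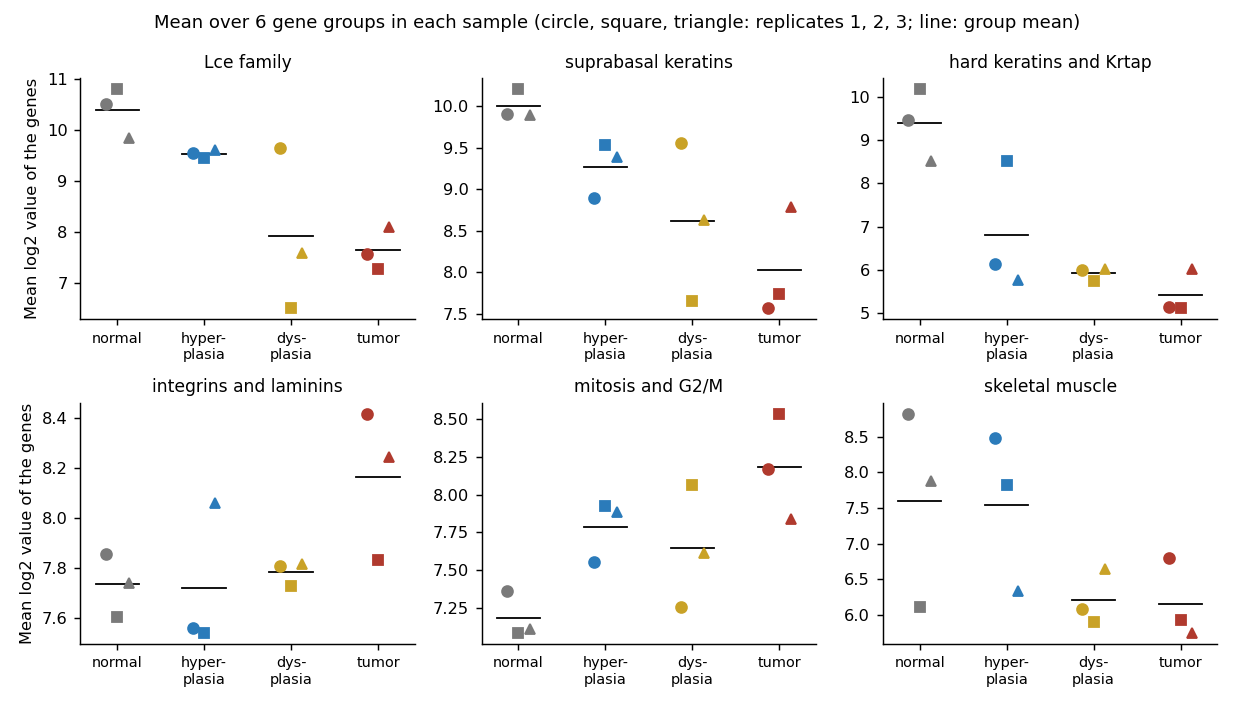
Mean log2 value (y axes) over the genes of 6 groups in each of the 12 samples, by lesion grade, with the group mean as a line. The Lce family separates tumor from hyperplasia in every sample, hard keratins are high in hyperplasia 2 alone among treated mice, and skeletal muscle genes are high in hyperplasia 1 and 2 and low in hyperplasia 3.

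The later difference was also set against the first one. For each gene, limma tested whether tumor minus hyperplasia differed from hyperplasia minus normal, which share the hyperplasia samples. An error in the hyperplasia mean moves these 2 differences in opposite directions, and its part in opposite signs was not tested. It called 0 of 24477 genes (0.0%), with 1130 at an unadjusted p under 0.05 (4.62%) and a smallest adjusted p of 0.257. S100a9 had a first difference of 5.31 and a later one of 1.01, which makes a contrast of -4.30 (standard error 0.68, adjusted p = 0.257). Its hyperplasia mean was 11.69, and no gene was above 13.9 on the 6 arrays, so a later difference as large as the first was out of reach on this scale. Without hyperplasia 1 the contrast was -5.30 and was called (adjusted p = 0.0123), as was Zfp942 at 5.45. Krt1 had opposite signs, 2.21 at the first step and -2.75 at the later one, with a contrast of -4.96 (adjusted p = 0.813). Saa3 likewise had 2.44 and -1.46, and Galr3 had -1.50 and 1.33 (adjusted p = 0.258 for its contrast). Krtap4-2 differed by -5.33 at the first step and -2.52 at the later one, and its contrast of 2.81 was 5.82 and called without hyperplasia 2 (adjusted p = 0.00896). The other hyperplasia values of this gene, 4.27 and 4.13, lay near the floor of the scale, so a later difference as large as the first could not have been measured. Slurp2 had -0.21 and -3.22, and Lce3e -0.08 and -2.47, so their means differed little between normal mucosa and hyperplasia, though neither contrast passed the test (adjusted p = 0.995 for each). Lce3e does not stand for its family here. The mean of the 21 Lce genes was 10.51, 10.79 and 9.84 in normal mucosa and 9.54, 9.45 and 9.61 in hyperplasia. Lce1c differed by -0.87 at the first step.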

How the data were processed

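Tongue epithelium from 3 tumor and 3 hyperplasia samples was compared, with the 6 normal and dysplasia samples in the same fit. The authors normalized the arrays by quantiles, summarised them by RMA on 1 probe set per Entrez gene and deposited log2 values. Software versions and the genome build behind the probe sets are not given in the sources used here, so positions are given for RefSeq sequences (GRCm38.p6) only. Of 24479 probe sets, 23281 had a symbol, 1198 had none and 23156 matched a RefSeq gene. Of symbols with 2 probe sets the brighter was kept, giving 24477 genes. Arrays have no counting depth, and the number of mice limits the precision.

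The 4 group means were fitted with limma 3.58.1 in R 4.3.3 (prior degrees of freedom 4.22, prior SD 0.296, 8 residual degrees of freedom), with Benjamini-Hochberg adjustment at 0.05. Every adjusted p is from limma. Intervals are 95%. The fit was tested on simulated data. Lists, figures and motif searches used Python 3.11.15, numpy 2.4.6, pandas 2.3.3 and matplotlib 3.10.9.

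The comparison, the 62 gene lists (1098 of 1176 genes measured) and the rules were chosen with earlier results of these data known. Named genes were the 15 with the smallest limma p in each direction among symbols that are not predicted, with a difference beyond 1, a mean of at least 6 in the higher group and no overlap, since none was called. To these were added up to 2 members per list with the largest absolute difference, and the epithelial markers with S100a8 and S100a9. Other genes are marked where they appear. Each hyperplasia sample had its own preparation day, and tumors 2 and 3 shared one. Preparation day and RIN came from the study's sample sheet and served as block and covariate only. Alternatives were the 6 samples alone, quantile normalization again, median centring, the dimmest 30% left out, the mean of probe sets, an intensity trend, array weights, RIN, age or the muscle mean as covariate, preparation day or replicate number as block, the methods' t-test, an adjusted p threshold of 0.1, and each sample left out.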

Additional observations from a re-analysis of the deposited data

How the results depend on the processing

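The count of calls was 0 in both directions under all alternatives to the test of tumor against hyperplasia except 3. Without hyperplasia 1, 1 gene was higher (Zfp942), and without tumor 3, 3 genes were lower (Flg, Slurp2 and Tchh), so that leaving out 1 sample gave 0 to 1 higher and 0 to 3 lower. The methods' t-test without adjustment gave 686 and 939. The smallest adjusted p was 0.079 with the 6 samples alone and 0.864 with the muscle mean as a covariate. Replicate numbers did not pair the samples (correlations of deviations -0.0181, -0.0147 and 0.0511). With the replicate block no gene was called between tumor and hyperplasia (smallest adjusted p 0.614), and 1 gene, Slc10a4l, was called for the later against the first difference, where leaving out 1 sample gave 0 to 2.

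Genes higher by over 1 numbered 118 without the dimmest 30% of genes, 305 with RIN and 311 with the muscle mean as a covariate, and 185 to 318 with 1 sample left out (311 without hyperplasia 3, 318 without tumor 2, 285 without tumor 3), while genes lower by over 1 numbered 278 to 413. Centring each array on its median turned the unadjusted split of 710 higher and 808 lower into 1036 and 593.

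With 1 sample left out, list medians ran from -1.222 to -0.609 for cornified envelope genes, -0.498 to -0.239 for barrier lipids, -0.478 to -0.087 for clade B serpins, -0.529 to -0.196 for differentiation regulators, 0.148 to 0.35 for matrix proteases, -0.209 to -0.078 for the Wnt pathway and -0.149 to 0.205 for S100 genes. Medians that changed sign or moved by over 1.5 times were also those of clock genes (-0.207 to 0.083), macrophage and Langerhans cell genes (-0.021 to 0.148), endothelial genes (-0.141 to -0.009), desmosome genes (-0.104 to 0.072), G1/S genes (-0.123 to 0.001), papilla regulators (-0.238 to -0.101), fibroblast genes (-0.272 to -0.116) and hard keratins (-1.877 to -0.361). So did those of T and NK cell genes (-0.252 to -0.091) and mast cell genes (-0.706 to -0.247). Tmprss11 genes (0.204 to 0.636) and the defining genes of stratified epithelium (-0.021 to 0.12) did so too. Of 93 genes followed, 86 kept their sign under 26 alternatives. Many of these alternatives cannot change a sign, because they leave the difference of the tumor and hyperplasia means as it is. Such were the 6 samples alone, the intensity trend, the t-test, the replicate block and leaving out a normal or dysplasia sample. Most of the genes were also named for a small p or a large difference, so a kept sign says little. Perp was -0.0074 with quantile normalization again, -0.0033 with array weights and -0.0334 with RIN, Dsp 0.0189 with median centring, Krt15 0.1036 with RIN and Mir99b 0.022 with the muscle mean. Leaving out 1 sample gave ranges across 0 for Perp (-0.1016 to 0.076), Dsp (-0.1367 to 0.0889), Trp63 (-0.0305 to 0.2939), Mir99b (-0.2203 to 0.0177), Uty (-0.0587 to 0.2656) and Eif2s3y (-2.4745 to 0.1088). The causes were not tested.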
